A study of Mus musculus with 8 samples.

Results

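Non-tumour mucosa of the small intestine was compared between Apc mutant mice that lacked HAI-1 in the intestinal epithelium and Apc mutant mice that kept it. The comparison rests on 4 of the 8 arrays of the series, chosen by their titles and tissue labels: 2 of control mucosa and 2 of HAI-1 deficient mucosa. The other 4 arrays hold tumours and entered only an alternative fit that takes its estimate of the spread from all 8 arrays. Of 18193 genes with a probe set assigned to a single gene, 12928 were tested.

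Control mice had the genotype Apc Min/+ with Spint1 flox/flox, and HAI-1 deficient mice had Apc Min/+ with Spint1 flox/flox and the Vil-Cre transgene. Spint1 encodes HAI-1. All were on the C57BL/6 background and ate the semipurified AIN-76 diet under pathogen-free conditions, so the Min allele of Apc, the floxed Spint1 alleles and the diet were shared by both groups. Cre was driven by the villin promoter, which is active in the intestinal epithelium, so cells of the lamina propria, vessels and muscle keep Spint1. Age, sex and pooling of mice are not given in the labels, nor do the labels state that arrays of the same group are different animals. Every p-value therefore measures only the spread between these arrays, which may be technical. The title and tissue label of the deficient arrays give non-tumour mucosa, while their free-text description uses the words tumour and non-tumour for the same tissue.

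HAI-1 is a Kunitz-type inhibitor on the surface of epithelial cells. It blocks the membrane serine proteases matriptase, hepsin and prostasin and the activator of hepatocyte growth factor. Proteases of this group cleave growth factor precursors, cell-surface receptors and junction proteins, and loss of HAI-1 leaves them without their main inhibitor. The Min allele of Apc predisposes the epithelium to adenomas through the Wnt pathway.

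Signal was given on the log2 scale for each probe set. Mean signal over all probe sets was scaled alike on the 4 arrays, and 313 to 624 of 45101 probe sets per array stood at the lowest value of 0. Pearson's r across the 12928 genes was 0.971 between the control arrays, 0.963 between the deficient arrays and 0.930 to 0.948 between groups, where genes are not independent replicates. Both arrays numbered 2 had more signal from the poly-A spike-in controls (mean log2 signal 8.34 and 8.35) than both arrays numbered 1 (7.02 and 6.87), and more 18S ribosomal RNA signal (14.60 and 13.63 against 9.29 and 8.02). Each number holds 1 array of either group, so differences are also given within a number. The ratio of 3′ to 5′ signal of Gapdh, which climbs when RNA is degraded, was 0.803 to 0.975 on the 4 arrays. Of 31 listed marker genes of enterocytes and the brush border, 29 had a single-gene probe set. All 29 passed the filter, which applies to the mean of the 4 arrays. Fabp1 read 15.33 and 15.20 log2 in control and 15.51 and 15.17 in deficient mucosa.

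Spint1 itself, read by 1 probe set, had a log2 signal of 12.87 and 13.00 in control mucosa and of 12.46 and 12.25 in deficient mucosa. Both deficient arrays were below both control arrays. The difference of -0.58 ± 0.27 log2 (standard error of the fit, as for all errors below, with 2 arrays per group) did not pass the test, at an adjusted p of 0.332. It was -0.41 between the arrays numbered 1 and -0.75 between those numbered 2. Whether this probe set lies within the floxed exons is unknown here, so its signal does not check the deletion. RNA was taken from whole mucosa, and fewer cells of a type and less RNA per cell cannot be told apart in any value below.

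A gene was called when its adjusted p was under 0.05 with limma and the Benjamini-Hochberg method over all genes tested. HAI-1 deficient mucosa had 79 called genes, 0.611% of those tested, of which 51 rose (0.394%) and 28 fell (0.217%). No called gene had overlapping groups, so all 79 necessarily differed in the same direction within both replicate numbers. That agreement is no separate check. The smallest called difference was 1.87 log2 in size. The median difference over all genes was 0.10 log2, and median centring shifted every difference by -0.16. At an unadjusted p under 0.05 there were 2245 genes, 1600 higher and 645 lower. The calls rest on both deficient arrays: with either left out, 0 genes were called, at smallest adjusted p-values of 0.119 without the first and 0.121 without the second. Leaving out the first or the second control array gave 260 or 319 calls. After quantile normalization 18 genes were called, of which 6 were higher and 12 lower. The higher share of calls thus went from 64.6% to 33.3%. It was 56.5% after median centring, 48% with probe sets averaged and 78.5% with all 8 arrays in the fit. The balance of rises and falls thus depends on the setting.

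**Figure D1:**
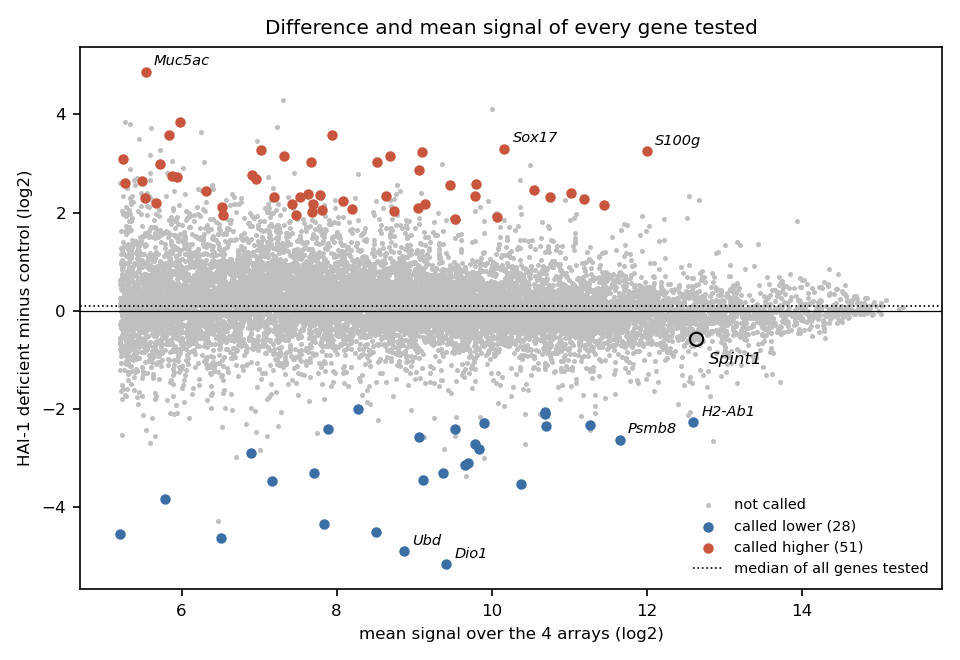
Each point is 1 of the 12928 genes tested, with the mean log2 signal of the 4 arrays on the horizontal axis and the log2 difference of HAI-1 deficient minus control mucosa on the vertical axis. The 51 genes called higher (red) and the 28 called lower (blue) lie at least 1.87 log2 from 0, and Spint1 (open circle) lies at -0.58.

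Genes of the interferon response held most of the falls. Of the 28 genes that fell, 17 belong to the lists of antiviral interferon-induced genes, genes induced by interferon-gamma, or genes of MHC class I and class II presentation. Interferons bind receptors on the cell surface and act through STAT and IRF factors on genes that block viral replication, and interferon-gamma from lymphocytes raises antigen presentation in the gut epithelium. Among 26 tested antiviral genes, 11 fell and 0 rose, against 0.217% and 0.394% of all genes tested. The signals of 24 were lower on both deficient arrays than on both controls, against 17.8% of all genes tested, and that of 1 (Isg20) was higher on both, against 30.1% of all genes. The median difference of the list was -2.02 log2, against 0.10 for all genes, with -1.81 within the arrays numbered 1 and -2.24 within those numbered 2. Summed linear signal of the list was 38269 and 37873 in control mucosa and 13709 and 10346 in deficient mucosa.

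Oas3, an enzyme that makes the oligoadenylates that switch on RNase L, had a log2 signal of 8.62 and 9.01 in control and of 4.38 and 4.01 in deficient mucosa. Both deficient values lay under the filter value of 5.20, so the fall was at least 12.2-fold (fitted difference -4.62 ± 0.30 log2, adjusted p = 0.0221). Ifit1, which binds viral RNA, read 11.35 and 11.09 in control against 8.43 and 7.74 in deficient mucosa, a fall of 3.13 ± 0.33 log2 (adjusted p = 0.0373). Usp18, which removes ISG15 from proteins and dampens interferon receptor signalling, read 10.67 and 11.38 against 7.89 and 7.55 (-3.31 ± 0.34, adjusted p = 0.0373). In each of the 3 genes the deficient arrays lay well below the controls, with a gap wider than the spread within either group. Herc6, an ISG15 ligase, differed by -3.30 ± 0.27 log2, Oasl2 by -3.10 ± 0.35 and Rtp4 by -2.71 ± 0.28. Xaf1 (-2.57), the nucleic acid sensor Zbp1 (-2.42), Ifit3 (-2.40), Oas1a (-2.10) and Trim30a (-2.01) completed the 11. Oas and Ifit genes belong to families of similar sequence, and probe sets may read more than their named member. The RNA sensor Ifih1 (11.72, 12.04 in control, 10.87, 10.60 in deficient mucosa) and Samd9l (-0.40 ± 0.32) were not called. Isg20 stood at 6.96 and 7.11 against 7.37 and 7.66, and was not called either (adjusted p = 0.441). When the first or the second deficient array was left out, the median of the list was -2.20 or -1.83 and 0 members were called. The number that fell was 5 with all 8 arrays in the fit, 5 after quantile normalization, 5 when probe sets were averaged, and 16 with a mean-variance trend.

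Promoters of these genes were searched for the interferon-stimulated response element, the site of the factors that interferons activate. The motif was GAAA, any 2 bases, GAAA, on either strand, in the 250 bases before and 50 after each RefSeq start (assembly GRCm38.p6), where matches may overlap. It was present in 10 of 18 antiviral genes with a promoter in the table (55.6%) and in 8 of 11 genes induced by interferon-gamma (72.7%), against 3.73% of 10401 tested genes and 3.99% of all 27025 genes in the table. The shares of both lists follow from the genes they hold and not from signals on these arrays. Among called genes the motif was found in 6 of 21 that fell (28.6%) and 1 of 39 that rose (2.56%). The 6 were Ifit1, Ifit3, Oas3, Oas1a, Trim30a and the helicase Ddx60, the last named after its values were seen. Ddx60 carries 2 matches, of which the nearer ends 9 bases before the start, and is not shown. Trim30a has a further RefSeq start, not shown, with no match wholly before it. Bases before a start of the 5 genes that belong to the antiviral list are shown 5′ to 3′ on the strand of the gene, with the motif in capitals:
Ifit1, chr19:34640739-34640888, plus strand: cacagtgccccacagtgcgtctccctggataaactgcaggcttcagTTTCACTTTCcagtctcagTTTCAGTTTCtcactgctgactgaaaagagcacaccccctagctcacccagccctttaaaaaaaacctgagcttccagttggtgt
Ifit3, chr19:34583329-34583528, plus strand: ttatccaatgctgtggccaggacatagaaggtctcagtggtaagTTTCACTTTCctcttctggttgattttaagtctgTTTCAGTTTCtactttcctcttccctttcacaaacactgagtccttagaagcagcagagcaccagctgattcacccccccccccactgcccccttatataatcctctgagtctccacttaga
Oas3, chr5:120777660-120777759, minus strand: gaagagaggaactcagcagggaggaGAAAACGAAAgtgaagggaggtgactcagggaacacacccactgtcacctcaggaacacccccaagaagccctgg
Oas1a, chr5:120907526-120907625, minus strand: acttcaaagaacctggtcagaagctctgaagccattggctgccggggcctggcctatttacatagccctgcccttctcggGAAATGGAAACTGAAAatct
Trim30a, chr7:104465194-104465293, minus strand: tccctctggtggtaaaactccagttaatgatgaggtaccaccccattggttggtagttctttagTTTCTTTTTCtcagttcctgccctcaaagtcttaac
Ifit1 and Ifit3 each carry 2 copies, read on the opposite strand, and in Oas1a 2 overlapping copies end 4 bases before the start. A match is a description of letters and not a site shown to be bound.

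Interferon-gamma targets were low in the same arrays. Of 14 tested, 2 fell and 0 rose, against 0.217% and 0.394% of all genes tested. The signals of 12 were lower on both deficient arrays, against 17.8% of all genes. The median of the list was -1.17 log2. Summed linear signals were 17501 and 14430 in control against 3520 and 3653 in deficient mucosa. Ubd, a ubiquitin-like modifier that marks proteins for the proteasome, had log2 signals of 11.53 and 11.10 in control and 6.93 and 5.91 in deficient mucosa, a 29.9-fold fall (-4.90 ± 0.41, adjusted p = 0.0230). Ido1, which breaks down tryptophan, read 12.31 and 11.97 against 8.84 and 8.38 (-3.53 ± 0.30, adjusted p = 0.0242). For both genes every control value lay far above every deficient value. The GTPases Igtp (-2.15 ± 0.32, adjusted p = 0.0534) and Irgm2 (-2.02 ± 0.37, adjusted p = 0.0666) were lower on both deficient arrays and missed the threshold, and the feedback inhibitor Socs1 read 6.55 and 5.49 in control and 6.18 and 5.80 in deficient mucosa, so its groups overlapped. Without the first or the second deficient array the median was -1.46 or -0.86 and 0 members were called.

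Receptors and factors of the pathway had a median nearer to that of all genes. Of 18 tested, 0 were called, and the median was -0.33 log2. The signals of 9 were lower and of 2 higher on both deficient arrays, against 17.8% and 30.1% of all genes. Irf1, a transcription factor induced by interferon-gamma, read 12.60 and 12.18 in control and 11.75 and 11.70 in deficient mucosa (-0.67 ± 0.28, adjusted p = 0.299). Irf7, the factor that amplifies type I interferon, read 10.83 and 10.12 against 10.16 and 8.81, so the groups overlapped. Ifngr1, a chain of the interferon-gamma receptor, stood at 10.91 and 11.41 against 11.70 and 11.88 (0.63 ± 0.30, adjusted p = 0.346).

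In antigen presentation, Psmb8, Psmb9, H2-Ab1 and H2-DMa fell, while the class I chains H2-K1, H2-D1 and B2m did not pass the test. Psmb8 and Psmb9 are catalytic subunits that replace their constitutive counterparts in the immunoproteasome. Psmb8 had log2 signals of 12.96 and 12.96 in control and 10.41 and 10.27 in deficient mucosa (-2.62 ± 0.26, 6.15-fold, adjusted p = 0.0373). Psmb9 read 12.53 and 12.35 against 10.10 and 10.12 (-2.32 ± 0.26, adjusted p = 0.0394). Replicates of both genes lay close to each other, with a spread far below the distance between groups. For the class I heavy chain H2-K1 the signals were 14.48 and 14.41 in control and 14.43 and 14.14 in deficient mucosa, and for the light chain B2m 14.60 and 14.68 against 14.38 and 14.44 (-0.23 ± 0.26, adjusted p = 0.724). The class I list had 2 falls among 15 tested genes, against 0.217% of all genes, and a median of -0.76 log2. Of the 15, 11 were lower on both deficient arrays, against 17.8% of all genes.

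Class II molecules present peptides to CD4 T cells and are made by professional presenting cells and, under interferon-gamma, by the epithelium. H2-Ab1, the beta chain of I-A, had log2 signals of 13.98 and 13.48 in control and 11.57 and 11.37 in deficient mucosa (-2.26 ± 0.30, adjusted p = 0.0479), and its 3 probe sets differed by -2.26 to -2.72. H2-DMa, which helps exchange the invariant chain peptide for antigen, read 11.80 and 11.64 against 9.58 and 9.73 (-2.07 ± 0.26, adjusted p = 0.0479). Deficient arrays were low for both genes and did not overlap the controls. H2-Eb1 (-2.06 ± 0.30, adjusted p = 0.0523), the invariant chain Cd74 (-2.12 ± 0.44, adjusted p = 0.0822) and the class II transactivator Ciita (8.71 and 7.28 against 6.43 and 6.20, adjusted p = 0.155) were lower on both deficient arrays without passing the test. Ifi30, a lysosomal reductase, was level at 12.92 and 12.90 against 12.92 and 12.94. Of 9 tested class II genes, 2 fell, against 0.217% of all genes, and the median was -1.69 log2. Without either deficient array 0 genes of the class I and class II lists were called, and their medians stayed between -0.75 and -0.80 and between -1.53 and -1.61.

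**Figure D2:**
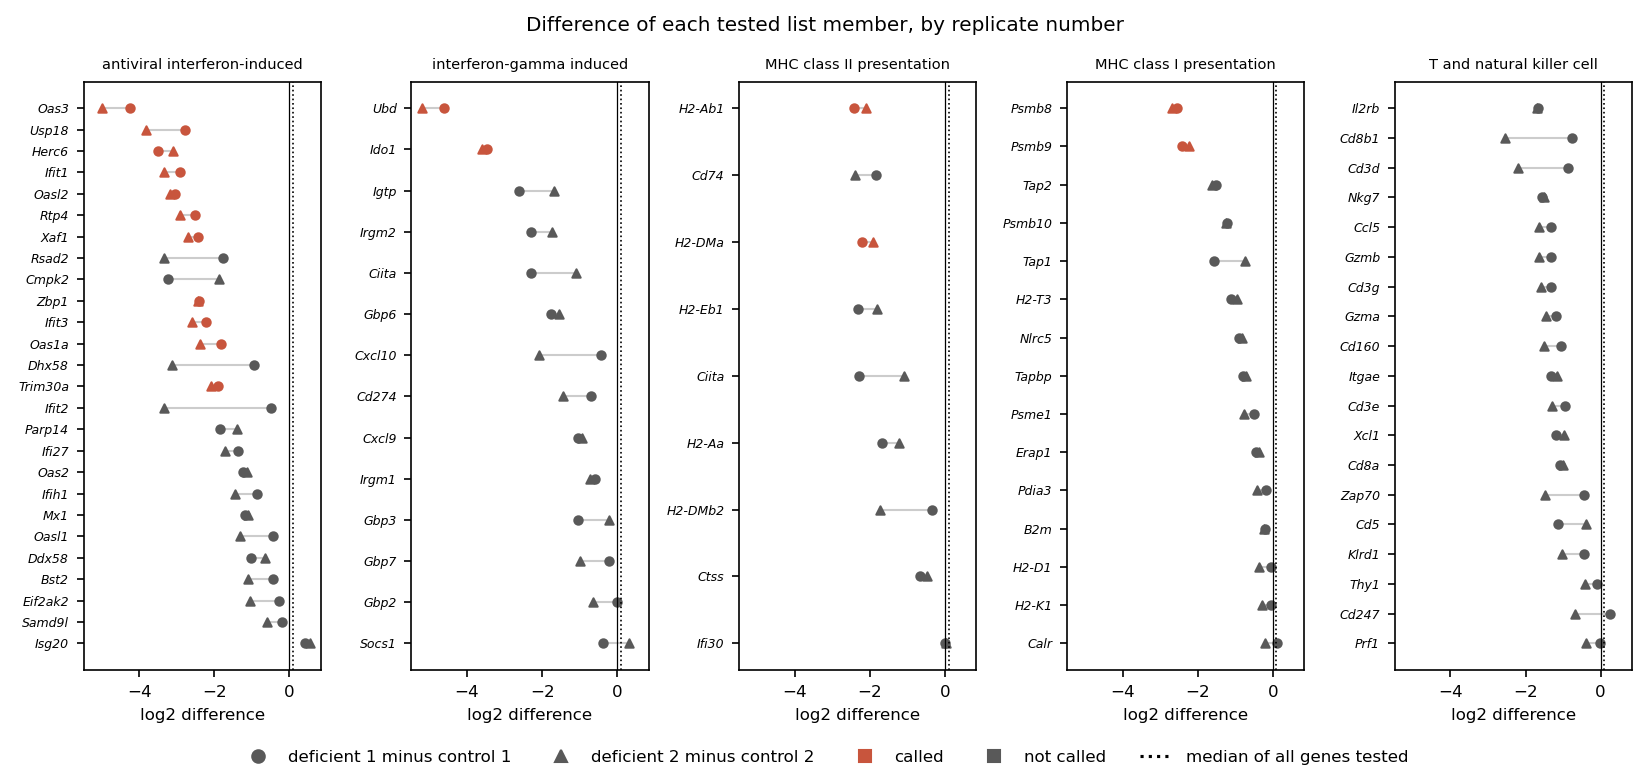
Each row is a tested member of 1 of 5 gene lists, and the horizontal axis is the log2 difference of a deficient array minus the control array of the same number (circles for number 1, triangles for number 2), with called genes in red. Of 26 antiviral genes, 24 were lower on both deficient arrays than on both controls, against 17.8% of all genes tested. The dotted line marks the median of all genes tested, 0.10.

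Markers of T and natural killer cells, which are a source of interferon-gamma in the mucosa, were lower in the same samples. Of 19 tested, 0 were called and 18 were lower on both deficient arrays, against 17.8% of all genes. Their median was -1.24 log2, with -1.08 and -1.46 within the numbers, and their summed linear signal was 30494 and 28516 in control and 13628 and 10247 in deficient mucosa. Granzyme A (Gzma), a protease of cytotoxic granules, had log2 signals of 13.59 and 13.65 in control and 12.41 and 12.18 in deficient mucosa (-1.32 ± 0.26, adjusted p = 0.0779). Itgae, the integrin chain that holds lymphocytes within the epithelium, read 10.29 and 10.21 against 8.98 and 9.04 (-1.24 ± 0.26, adjusted p = 0.0828). Ccl5 differed by -1.48 ± 0.30 and the interleukin receptor chain Il2rb by -1.68 ± 0.33. No marker of the list was at 0 on all 4 arrays. The part of these cells in the interferon and antigen presentation values was not tested.

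Among other leukocyte lists, macrophage and dendritic cell markers had a median of -0.05 log2 (18 tested) and B and plasma cell markers one of -0.21 (13 tested), and 0 of either were called. The sign of both medians depended on the array left out. For macrophages and dendritic cells it was 0.38 without the first control array, -0.54 without the second, -0.64 without the first deficient array and 0.47 without the second. For B and plasma cells the same 4 values were -0.42, -0.06, -0.82 and 0.27. Lyz2, a lysozyme of myeloid cells, read 11.62 and 12.21 in control and 12.04 and 12.06 in deficient mucosa. Mast cell genes had a median of -1.27 over 7 tested, with the mucosal mast cell protease Mcpt1 at 11.54 and 10.05 against 8.48 and 7.47 (-2.82 ± 0.57, adjusted p = 0.0788) but the stem cell factor receptor Kit at 7.37 and 7.61 against 7.84 and 8.89. The median of the mast cell list was -0.13 without the first control array, -0.68 without the second, -1.42 without the first deficient array and -1.27 without the second. Neutrophil markers had a median of 0.81 over 9 tested (0.40 without the first deficient array), and their calgranulin genes spread widely, as with S100a8 at 6.74 and 5.11 against 9.81 and 7.06 (2.51 ± 0.94, adjusted p = 0.248).

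Further genes that fell do not belong to the immune lists. Dio1, the deiodinase that turns thyroxine into active thyroid hormone, had the largest called difference. Its log2 signal was 12.34 and 11.65 in control and 6.68 and 6.98 in deficient mucosa, a 35.9-fold fall (-5.16 ± 0.33, adjusted p = 0.0221). Both deficient arrays lay far below the controls. It was the single gene called among 18 tested genes of retinoid and thyroid hormone handling, whose median was 0.11 and lay between 0.13 (without the first control array) and 0.25 (without the second deficient array) with 1 array left out. Afp, the fetal plasma protein alpha-fetoprotein, read 10.78 and 10.89 against 7.30 and 7.49 (-3.44 ± 0.26, adjusted p = 0.0230), and its 3 probe sets above the filter differed by -3.12 to -3.46. Kcnj13, an inward rectifier potassium channel, read 8.73 and 9.07 against 5.45 and 5.41 (-3.47 ± 0.27, adjusted p = 0.0230). Replicates of Afp and Kcnj13 were close together in both groups.

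Gsdmc2, a gasdermin of the pore-forming family, had log2 signals of 10.67 and 10.86 in control and 5.41 and 7.11 in deficient mucosa (-4.51 ± 0.55, adjusted p = 0.0479). Gasdermin C genes are near copies of each other, so the probe set may read several of them. For Pla2g4c, a cytosolic phospholipase, the probe set of highest signal gave an at least 19.3-fold fall (adjusted p = 0.0394), while a second one differed by -0.22. Nts, the gut hormone neurotensin, was the single called gene among 20 of enteroendocrine cells, at 12.22 and 11.52 against 9.54 and 9.51 (-2.35 ± 0.32, adjusted p = 0.0497). Chgb, a general marker of these cells, read 11.72 and 12.04 against 12.13 and 11.49, so its groups overlapped. Fosb, a part of the AP-1 factor, fell at least 7.40-fold (8.42 and 8.26 against 5.70 and 5.18), whereas Fos differed by -0.46 ± 0.28 (adjusted p = 0.475). The lymphocyte kinase gene Stk10 read 11.38 and 11.10 against 8.70 and 8.16 (-2.81 ± 0.31, adjusted p = 0.0394).

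**Figure D3:**
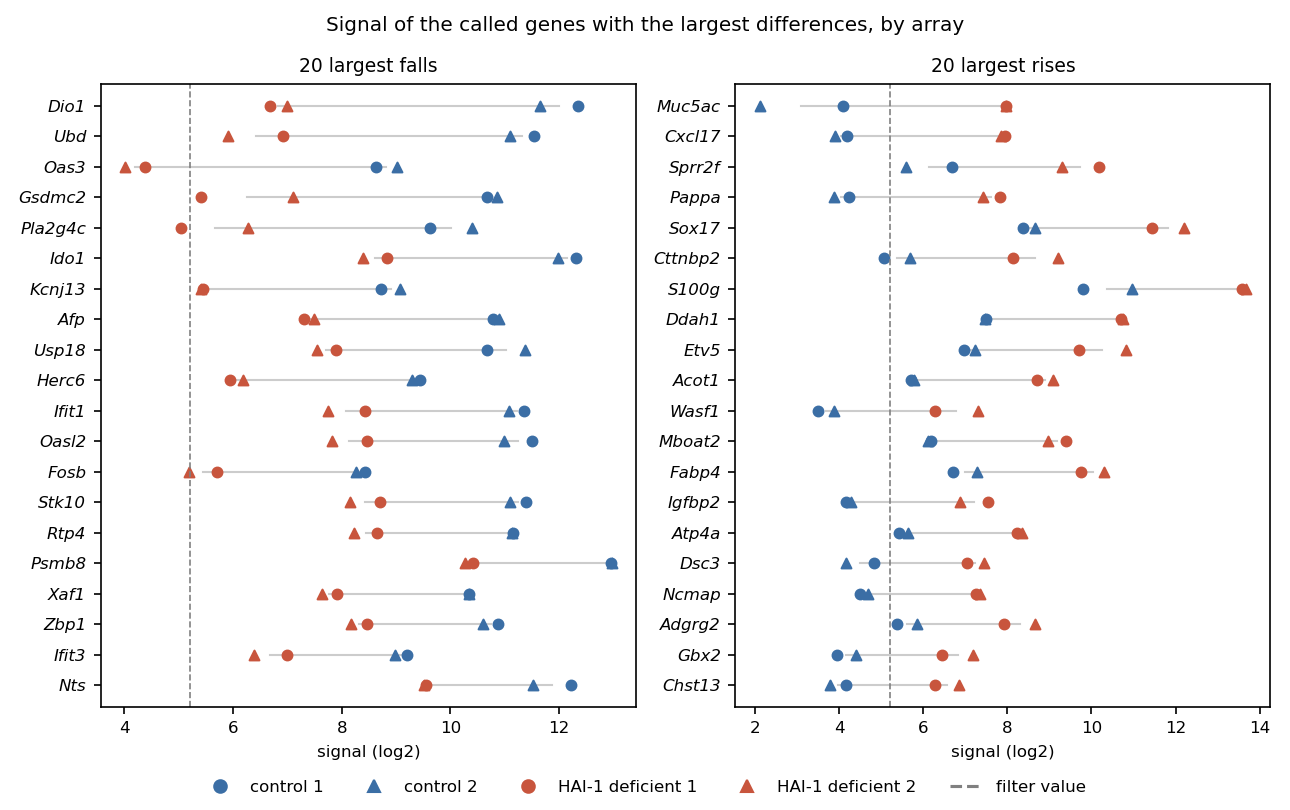
The log2 signal of the 20 largest falls and the 20 largest rises among called genes is shown for each array, with control arrays in blue, deficient arrays in red, circles for number 1 and triangles for number 2. Grey lines join the group means and the dashed line is the filter value of 5.20; no gene shown has overlapping groups, which the rule for these genes required.

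Markers of the gastric epithelium had the highest median of the 55 gene lists in the fit of all 4 arrays, while without the second deficient array the adipocyte list had a median of 1.55 against 1.51. Of 15 tested, 3 rose and 0 fell, against 0.394% and 0.217% of all genes. Of the 15, 12 were higher on both deficient arrays, against 30.1% of all genes. The median was 1.94 log2, with 1.58 and 2.30 within the numbers, and the summed linear signal was 3364 and 3609 in control and 11624 and 17780 in deficient mucosa. Muc5ac, the mucin of gastric surface cells, had a log2 signal of 4.09 and 2.12 in control and 7.97 and 7.97 in deficient mucosa. Its rise was at least 6.81-fold (adjusted p = 0.0479). Both control values lay under the filter value, so Muc5ac passed the filter through the deficient arrays alone. Atp4a, the catalytic subunit of the acid pump, read 5.42 and 5.63 against 8.23 and 8.34 (2.76 ± 0.26, adjusted p = 0.0352). Ctse, the aspartic protease cathepsin E, read 10.05 and 10.07 against 12.05 and 12.62 (2.28 ± 0.30, adjusted p = 0.0479). In all 3 genes every deficient value lay above every control value, and Ctse had the highest control signal of the 3. A second probe set of Ctse differed by 0.26.

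Gastrokine genes Gkn3 (8.86 and 9.21 against 11.23 and 12.18, adjusted p = 0.0517) and Gkn1 (7.60 and 8.18 against 9.88 and 10.68, adjusted p = 0.0558) and the annexin gene Anxa10 (1.94 ± 0.29, adjusted p = 0.0534) were higher on both deficient arrays and missed the threshold. Cldn18, a junction protein of the stomach, differed by -0.23 by its probe set of highest signal and by 3.65 by a second one under the filter. After quantile normalization 0 members of the gastric list were called, and with a mean-variance trend 8 were. Without the first or the second deficient array 0 were called, with medians of 2.12 and 1.51. Markers of exocrine pancreas, another tissue near the upper small intestine, had a median of 0.11 over 6 tested (0.07 without the second control array, and 0.55, 0.27 and 0.49 without the first control, first deficient and second deficient array), with Pnliprp1, a lipase-related protein, at 6.25 and 7.53 against 8.75 and 10.61 (adjusted p = 0.112). The position along the intestine from which the mucosa was taken is not given in the labels.

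Among genes with a known gradient along the intestine, a duodenal gene rose and genes of ileal uptake differed in both directions. A difference in sampled position was not tested. S100g, a vitamin D-dependent calcium-binding protein of the duodenum, read 9.79 and 10.96 in control and 13.58 and 13.68 in deficient mucosa (3.25 ± 0.42, 9.53-fold, adjusted p = 0.0479). Genes of bile acid and cobalamin uptake, a task of the ileum, had a median of -0.48 over 8 tested, with 0 called. It was -0.85 without the first deficient array and -0.21 without the second. The cobalamin receptor chains Cubn (12.58 and 12.12 against 10.13 and 11.03, adjusted p = 0.0901) and Amn (13.36 and 13.09 against 11.66 and 12.10, adjusted p = 0.0911) were lower on both deficient arrays. The bile acid binding protein gene Fabp6 stood at 4.47 and 5.23 against 6.47 and 5.65 (adjusted p = 0.204). Its control values lay near the filter value of 5.20. The bile acid sensor gene Nr1h4 stood at 9.70 and 9.26 against 10.31 and 10.94 (adjusted p = 0.160). Among 22 tested nutrient transporters and calcium carriers, S100g was the single call, and the sodium-coupled glucose transporter Slc5a1 stood at 14.37 and 14.60 against 14.38 and 14.53.

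Enterocyte and brush border genes had a median of -0.09 log2 with 0 of 29 called, and goblet cell genes one of 0.04 with 0 of 14 called. Of the 29, 9 were lower and 2 higher on both deficient arrays, and of the 14, 2 were lower and 4 higher. The shares of all genes were 17.8% lower and 30.1% higher. With 1 array left out, the first median ran from -0.24 (without the first deficient array) to 0.07 (without the second) and the other from -0.10 to 0.16 without the same arrays. The mucin gene Muc2 read 14.11 and 13.94 in control and 14.09 and 13.80 in deficient mucosa. Clca1, a secreted goblet cell protein, stood at 14.17 and 14.21 against 13.33 and 12.43 (-1.31 ± 0.36, adjusted p = 0.142), and the metalloprotease meprin A (Mep1a) at 12.12 and 11.45 against 10.25 and 9.70 (-1.80 ± 0.35, adjusted p = 0.0763). Among 12 Paneth cell and antimicrobial genes the secreted phospholipase Pla2g2a rose, from 9.54 and 9.10 to 11.81 and 11.76 (2.47 ± 0.29, adjusted p = 0.0417), while the median of the list was -0.60, or -0.08 without the first deficient array and -0.37 without the second control array. Lysozyme (Lyz1) stood at 14.68 and 14.75 against 14.94 and 15.01, and Reg1 at 13.31 and 14.06 against 11.65 and 12.25 (adjusted p = 0.0886). Tuft cell genes had a median of -0.53, with 0 of 9 called. That value was -0.09 without the first control array, -0.05 without the second deficient array, -0.80 without the first deficient array and -0.11 with probe sets averaged.

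Of the claudins, tight junction and desmosome genes, Cldn2 alone among 23 tested was called. Cldn2 forms pores for cations and water and is most abundant in crypts. Its log2 signals were 9.94 and 9.72 in control and 12.55 and 11.91 in deficient mucosa (2.40 ± 0.32, 5.28-fold, adjusted p = 0.0479), and a second probe set differed by 1.28. E-cadherin (Cdh1) read 13.78 and 14.22 against 13.99 and 14.15, Cldn7 differed by -0.08 ± 0.27 and Cldn15, a sodium pore of the villus, by -0.85 ± 0.27 (adjusted p = 0.189). Dsc3, a desmosomal cadherin outside this list, rose at least 4.11-fold by 1 probe set (adjusted p = 0.0479), whereas its other probe set differed by -0.26. Without the first deficient array the fitted value of Dsc3 came from the other probe set and was -0.53, and without the second it was 0.01.

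Proteases that HAI-1 inhibits, and their substrates, were not called. Among 12 tested genes of this network 0 passed the test and the median was 0.27 log2, or 0.14 without the first control array, 0.09 without the first deficient array and 0.08 with probe sets averaged. Matriptase (St14) read 12.91 and 12.60 in control and 13.22 and 12.93 in deficient mucosa (0.32 ± 0.28, adjusted p = 0.642), and prostasin (Prss8) 8.57 and 8.12 against 9.43 and 9.06 (0.90 ± 0.30, adjusted p = 0.205). The related inhibitor HAI-2 (Spint2) differed by -0.07 ± 0.28. Hepatocyte growth factor (Hgf) had signals of 6.23 and 5.60 against 6.60 and 4.86, and its receptor Met 10.28 and 10.58 against 10.74 and 10.70 (adjusted p = 0.657). In the plasminogen system, tissue plasminogen activator (Plat) rose from 8.05 and 8.30 to 10.53 and 10.95 (2.56 ± 0.29, adjusted p = 0.0394), the single call among 7 tested. The urokinase receptor Plaur stood at 8.18 and 7.67 against 9.56 and 8.66 (adjusted p = 0.195).

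The insulin-like growth factor (IGF) axis had 2 rises among 13 tested genes, against 0.394% of all genes, and a median of 1.32 log2. In 8 members both deficient arrays were higher, against 30.1% of all genes. Pappa is a metalloprotease that frees IGF by cutting its binding proteins. Its log2 signal was 4.23 and 3.87 in control and 7.82 and 7.42 in deficient mucosa, a rise of at least 5.35-fold (adjusted p = 0.0230). The binding protein gene Igfbp2 read 4.16 and 4.29 against 7.54 and 6.88 (at least 4.02-fold, adjusted p = 0.0379). Control values of both lay under the filter value and deficient values above it. Both genes thus passed the filter through the deficient arrays alone, so their calls are no separate support for a rise of the axis. Igfbp4, a substrate of Pappa, read 10.16 and 9.47 against 12.20 and 11.95 (2.26 ± 0.33, adjusted p = 0.0523), and Igfbp5 differed by 1.61 ± 0.29 and Igfbp3 by 2.26 ± 0.48. Igf1 stood at 6.80 and 6.35 against 8.27 and 7.50 (adjusted p = 0.141), and Igf2 and the receptor genes Igf1r, Igf2r and Insr overlapped between groups. Without the first or the second deficient array 0 members were called, with medians of 0.98 and 1.18, and the median was 0.80 with probe sets averaged.

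Stromal lists were also above the median of all genes. Of 14 endothelial genes, 1 rose, against 0.394% of all genes, and the median was 1.39 log2. The signals of 12 were higher on both deficient arrays, against 30.1% of all genes. Sox17, a transcription factor of arterial endothelium and of embryonic endoderm, read 8.36 and 8.67 in control and 11.43 and 12.20 in deficient mucosa (3.30 ± 0.35, 9.85-fold, adjusted p = 0.0373), and a second probe set differed by 3.42. VE-cadherin (Cdh5) stood at 6.44 and 6.86 against 8.53 and 9.35 (2.29 ± 0.37, adjusted p = 0.0569), and the VEGF receptor Kdr at 6.96 and 6.70 against 6.06 and 7.39, so Kdr overlapped. Without the first or the second deficient array the endothelial median was 1.57 or 0.90, and 0 members were called.

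Collagens and other matrix genes had a median of 1.05 over 23 tested, with 0 called. Of the 23, 16 were higher on both deficient arrays, against 30.1% of all genes. Col4a1, of the basement membrane, read 8.54 and 8.76 in control and 10.46 and 10.52 in deficient mucosa (1.84 ± 0.26, adjusted p = 0.0508). Fibroblast markers had a median of 0.79 over 11 tested, with 0 called. Of the 11, 8 were higher and 2 lower on both deficient arrays, against 30.1% and 17.8% of all genes. The growth factor receptor Pdgfra differed by 2.14 ± 0.32 (adjusted p = 0.0529) and the matrix proteoglycan Lum by -1.37 ± 0.38. Among 12 smooth muscle genes Myl9, a regulatory myosin light chain, rose from 8.51 and 8.48 to 11.16 and 11.02 (2.59 ± 0.26, adjusted p = 0.0373), while the kinase gene Mylk stood at 13.06 and 12.55 against 11.92 and 11.85. Matrix proteases and their inhibitors had a median of 1.04 over 16 tested with Pappa as the single call. The membrane-bound Mmp14 read 9.30 and 9.18 against 11.37 and 10.79 (adjusted p = 0.0595). Fabp4, a fatty acid carrier of adipocytes and capillaries, rose from 6.71 and 7.29 to 9.75 and 10.31 (3.03 ± 0.34, adjusted p = 0.0394). The part of stromal cells in these values was not tested.

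**Figure D4:**
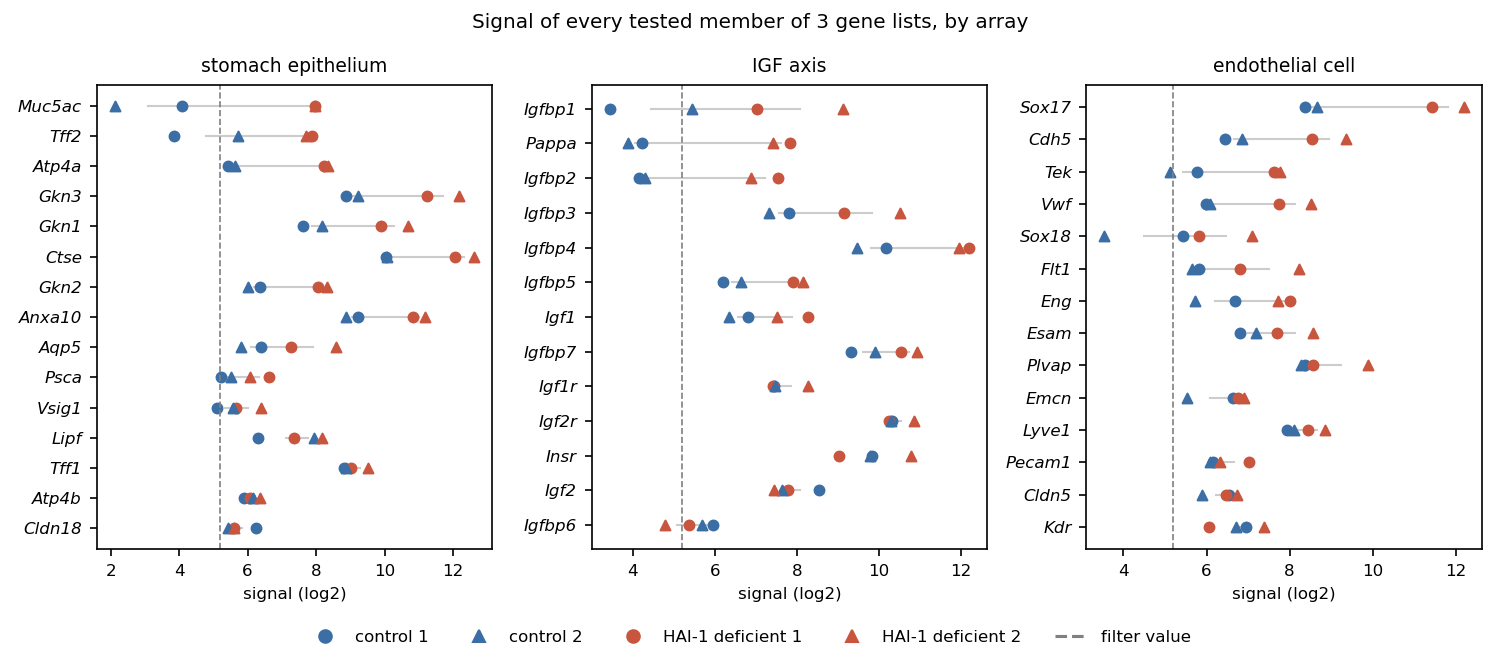
The log2 signal of every tested member of the gastric epithelium, IGF axis and endothelial lists is shown for each array, with control arrays in blue, deficient arrays in red, circles for number 1 and triangles for number 2, and the filter value of 5.20 as a dashed line. Of 15 gastric genes, 12 were higher on both deficient arrays than on both controls, as were 8 of 13 IGF genes and 12 of 14 endothelial genes. The share of all genes tested was 30.1%.

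Targets of the Wnt pathway, which Apc restrains, had a median of 1.01 log2 over 17 tested genes. Of these, 1 rose and 0 fell, against 0.394% and 0.217% of all genes. In 13 both deficient arrays were higher, against 30.1% of all genes. Notum, a secreted enzyme that inactivates Wnt proteins, read 7.72 and 7.21 in control and 9.67 and 9.94 in deficient mucosa (2.33 ± 0.30, adjusted p = 0.0479). The adhesion receptor Cd44 stood at 9.55 and 9.96 against 11.03 and 11.33 (1.43 ± 0.29, adjusted p = 0.0822), and the feedback gene Axin2 at 9.25 and 9.39 against 9.45 and 9.81 (0.30 ± 0.28, adjusted p = 0.651). Without the first or the second deficient array the median was 1.39 or 0.64 and 0 members were called, and without the second control array it was 1.56. After quantile normalization 0 were called as well. Tumour cells in the sampled mucosa were not tested for.

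Crypt genes followed with smaller medians and no calls. Stem cell genes had a median of 0.62 over 15 tested and cell cycle genes one of 0.55 over 25. Of these, 8 and 11 were higher on both deficient arrays, against 30.1% of all genes. The stem cell marker Olfm4 read 12.50 and 13.33 in control and 11.38 and 12.59 in deficient mucosa, and the Wnt-regulated receptor gene Tnfrsf19 6.06 and 6.27 against 7.82 and 8.86 (adjusted p = 0.0666). Rrm2, a subunit of ribonucleotide reductase, stood at 8.89 and 9.89 against 11.01 and 11.71 (1.97 ± 0.43, adjusted p = 0.0907), while the proliferation marker Pcna differed by 0.51 ± 0.30. The cell cycle median was 0.92 without the first deficient array, 0.28 without the second, 0.19 without the first control array and 0.90 without the second. The stem cell median was 0.34 without the second deficient array and 0.43 to 0.77 with another array left out.

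Genes of the fetal-like state that the epithelium takes on during repair had a median of 1.22 log2 over 15 tested, with 0 called. Of the 15, 11 were higher and 0 lower on both deficient arrays, against 30.1% and 17.8% of all genes. Annexin A1 (Anxa1) read 9.85 and 9.64 in control and 11.52 and 11.58 in deficient mucosa (1.80 ± 0.26, adjusted p = 0.0523), and clusterin (Clu) differed by 2.33 ± 0.35 (adjusted p = 0.0537). Both missed the threshold, and their groups did not overlap. Sprr2f, a small proline-rich protein of stressed epithelia outside the fetal-like list, rose from 6.70 and 5.60 to 10.17 and 9.29 (3.58 ± 0.47, adjusted p = 0.0479). Sprr1a of the same family differed by 0.57 ± 0.55. With all 8 arrays in the fit 2 genes of the fetal-like list were called, and with a mean-variance trend 5 were. After quantile normalization, after median centring, with no filter and with probe sets averaged, 0 were called. Without the first or the second deficient array the median of the list was 1.16 or 1.24.

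Metabolic and stress genes gave single calls. Ak4, a mitochondrial adenylate kinase induced by low oxygen, rose from 6.47 and 6.40 to 8.69 and 8.95 (2.38 ± 0.27, adjusted p = 0.0394). It was the single call among 23 tested genes of hypoxia and glycolysis, whose median was 0.97. Of the 23, 17 were higher on both deficient arrays, against 30.1% of all genes. Lactate dehydrogenase A (Ldha) stood at 14.64 and 14.61 against 15.03 and 14.56. The core letters ACGTG of the hypoxia response element, on either strand, were present in the promoters of 17 of 22 of these genes (77.3%), against 28.7% of tested genes. That share follows from the genes listed and not from signals on these arrays. Among called genes the core was present in 11 of 39 that rose (28.2%) and 2 of 21 that fell (9.52%). The median of the list was 0.62 without the first deficient array and 1.18 without the second. Cholesterol synthesis and uptake genes had a median of 0.86 over 20 tested, with 0 called. Of the 20, 15 were higher on both deficient arrays, against 30.1% of all genes. Among the 15 was lanosterol synthase (Lss), at 8.46 and 8.55 against 10.22 and 9.61 (adjusted p = 0.0912).

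Ddah1, which breaks down the nitric oxide synthase inhibitor dimethylarginine, had log2 signals of 7.49 and 7.48 in control and 10.70 and 10.76 in deficient mucosa (3.24 ± 0.26, 9.45-fold, adjusted p = 0.0230), and its 5 probe sets differed by 0.75 to 3.67. Replicates lay almost on top of each other in both groups. Akr1b8, an aldo-keto reductase, rose from 9.48 and 9.72 to 12.11 and 11.72 (2.32 ± 0.29, adjusted p = 0.0479) as the single call among 17 genes controlled by NRF2, whose median was 0.37, or 0.13 without the first control array and 0.20 without the first deficient array. Cbr3, a carbonyl reductase of that list, stood at 4.25 and 6.09 against 10.15 and 8.75 (4.28 ± 0.70, adjusted p = 0.0591). The fatty acyl thioesterase Acot1, a target of PPAR-alpha, rose from 5.71 and 5.79 to 8.70 and 9.09 (3.14 ± 0.28, adjusted p = 0.0275), while the median of that list was 0.38 over 18 tested. Cyp1b1 rose by 2.06 ± 0.26 log2 (adjusted p = 0.0479) among 21 cytochrome P450 genes, whose median was -0.20 and ran from -0.22 without the second deficient array to 0.11 without the second control array. Oxidative phosphorylation genes stayed within -0.41 to 0.19, with 0 of 22 called.

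Sulfotransferases of the glycosylation list held 2 rises among 16 tested genes, against 0.394% of all genes. After quantile normalization and with probe sets averaged 0 members of the list were called, and with all 8 arrays in the fit 1 was. Chst4, which sulfates mucin-type sugars, read 8.64 and 8.61 in control and 11.30 and 10.62 in deficient mucosa (2.33 ± 0.32, adjusted p = 0.0495), and Chst13, which acts on chondroitin, rose at least 2.58-fold (adjusted p = 0.0479). Lrg1, an acute-phase glycoprotein, rose from 6.77 and 6.46 to 8.87 and 9.06 (2.35 ± 0.28, adjusted p = 0.0445). The siderophore-binding protein Lcn2 stood at 6.46 and 6.24 against 7.91 and 9.05 (adjusted p = 0.0760), and serum amyloid Saa1 at 7.31 and 5.80 against 4.76 and 4.12 (adjusted p = 0.118). Cxcl17, a chemokine of mucosal surfaces, rose at least 6.47-fold from 4.20 and 3.91 to 7.94 and 7.85 (adjusted p = 0.0230). It was the single call among 24 chemokines, of which 9 were lower on both deficient arrays, against 17.8% of all genes.

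Other large rises were those of Etv5, an ETS-family transcription factor (6.97 and 7.24 in control against 9.70 and 10.82 in deficient mucosa, adjusted p = 0.0479), and Mboat2, a lysophospholipid acyltransferase (6.20 and 6.12 against 9.41 and 8.96, adjusted p = 0.0352). Cttnbp2, which binds cortactin, rose at least 9.30-fold, Ncmap at least 4.30-fold and the homeobox gene Gbx2 at least 3.07-fold. The adhesion receptor Adgrg2 rose by 2.67 ± 0.36 (adjusted p = 0.0479), and the actin regulator Wasf1 from 3.51 and 3.88 to 6.28 and 7.29 (adjusted p = 0.0479). Of the 51 rises, 13 had a control value under the filter value, so that only a lower bound of the fold can be given, and of the 28 falls 5 had such a deficient value. Across the called genes, 28 had several probe sets above the filter, and in 27 of these all probe sets had the same sign.

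**Figure D5:**
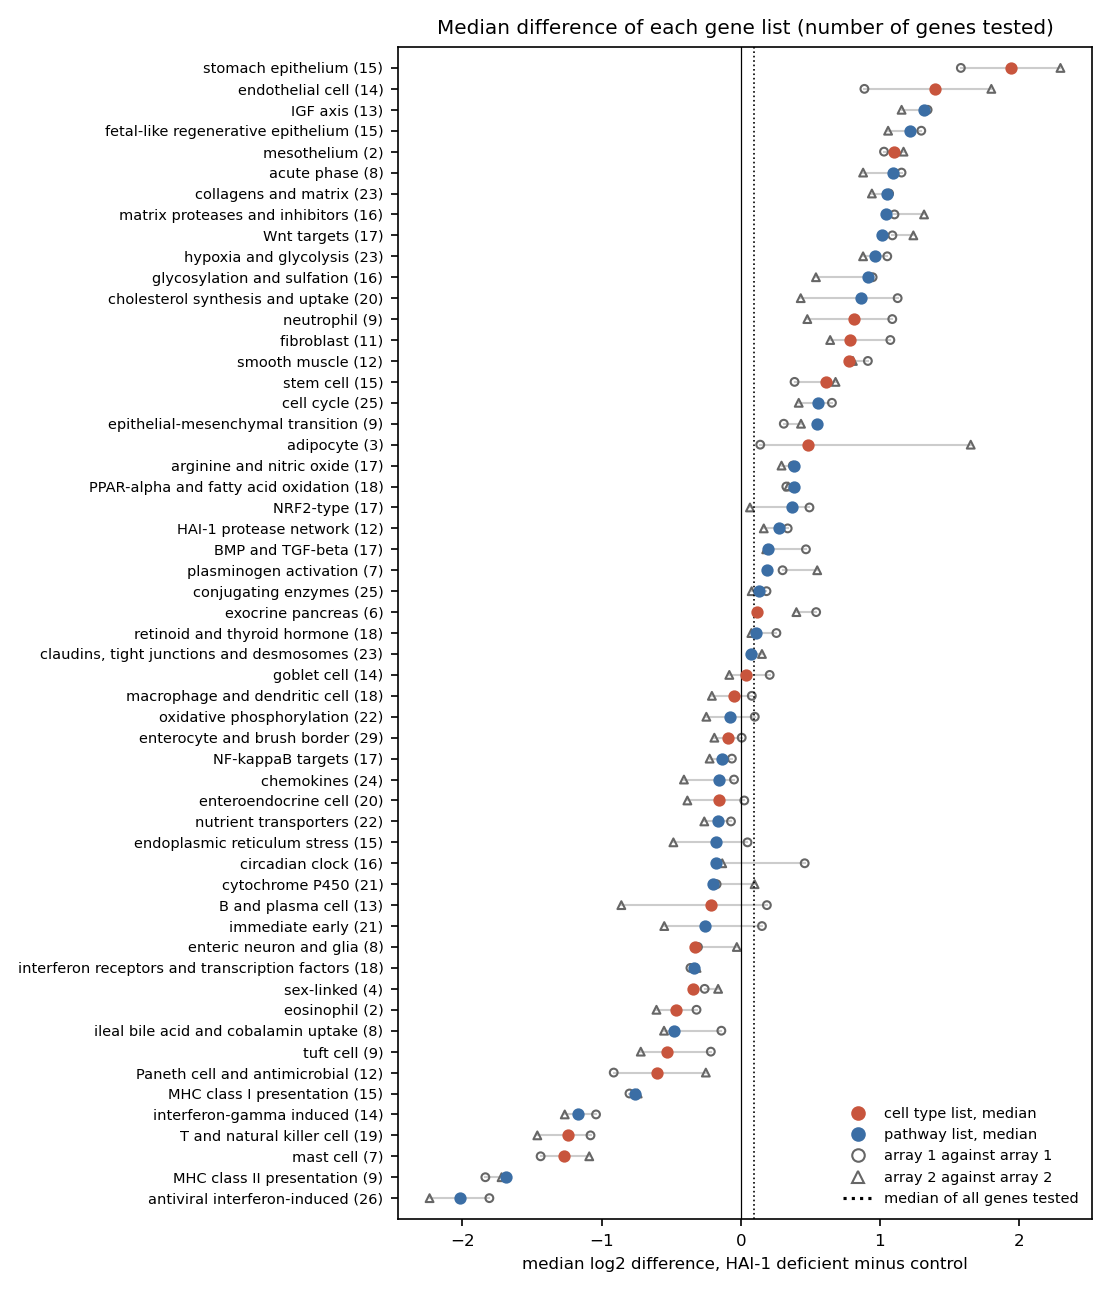
The median log2 difference of the tested members of each of 55 gene lists is shown as a filled point, with cell type lists in red and pathway lists in blue, and open symbols give the median within the arrays numbered 1 (circles) and 2 (triangles). Antiviral genes had the lowest median, -2.02, and gastric epithelium genes the highest, 1.94, and the dotted line is the median of all genes tested, 0.10.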

How the data were processed

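RNA from non-tumour small-intestinal mucosa had been labelled with biotin and measured on Affymetrix mouse arrays, per the labels' protocols. The table deposited by the authors holds 1 log2 value for each of 45101 probe sets and array. Per the submitters' processing notes MAS5 and RMA were used, but what each was used for is not stated here. After conversion to the linear scale each array had a trimmed mean of 500.003 to 500.004, as MAS5 scaling gives, and distributions differed between arrays, so low values carry large errors on the log2 scale. The table was used as deposited.

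Platform annotation gave a single gene for 34945 probe sets, more than 1 for 932 and no gene for 9224. Of the first, 34741 were found in RefSeq GRCm38.p6. Probe sets under the 40th percentile of the mean of the 4 arrays (5.20 log2, 36.8 linear) were removed, and the probe set of highest mean stood for each gene. Groups were compared on the 4 arrays with limma 3.58.1 in R 4.3.3 (default eBayes, two-sided, 2 residual and 4.20 prior degrees of freedom) and Benjamini-Hochberg adjustment over 12928 genes, with calls at an adjusted p under 0.05. With 2 arrays against 2 an exact permutation test cannot go below p = 0.333, so none was used. Where an array of the lower group lay under the filter value it was raised to it, and the fold is given as at least so much. A gene whose lower group lay under the filter value on both arrays passed the filter through the other group alone. The script was tested on simulated data. Precision is limited by the number of arrays.

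The 55 gene lists, 21 of them cell type markers, and the comparison itself were chosen with earlier results of these data known, so counts over lists are descriptions without a test. Named genes were Spint1, the 20 largest rises and 20 largest falls among called genes (at least 1 log2, no overlap, descriptive symbol), and in each list the called members, the 4 of highest signal, the largest rise and fall, and any member of lists of at most 14. Promoter sequences are from RefSeq, GRCm38.p6. Detection calls were not used here, and the tumour arrays entered only the alternative fit of all 8 arrays, through its estimate of the spread. Alternatives tried were all 8 arrays in 1 fit, a mean-variance trend, quantile normalization, median centring, no filter, a 60th percentile filter, dim values raised to the filter value, the mean of probe sets, the replicate number as a block, and leaving out each array. Figures were drawn with python 3.11.15 and matplotlib 3.10.9.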

Additional observations from a re-analysis of the deposited data

How the results depend on the processing

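The count of called genes (79, of which 51 were higher and 28 lower) depended on the setting, and the cause was not tested. It was 65 with all 8 arrays in the fit (51 and 14), 92 after median centring (52 and 40), 458 with a mean-variance trend (320 and 138), 405 with a 60th percentile filter (294 and 111), 370 with dim values raised to the filter value (284 and 86), 25 with probe sets averaged (12 and 13) and 18 after quantile normalization (6 and 12). With no filter 0 genes were called, at a smallest adjusted p of 0.229 and 2154 genes at an unadjusted p under 0.05. Leaving out each array in turn gave 0 to 319 calls, with 0 to 244 higher and 0 to 75 lower, and 0 for either deficient array. The replicate number as a block gave 281 calls, 214 higher and 67 lower, 79 of them calls without the block. The labels do not pair the arrays, and only 2 pairs exist: deviations of same-numbered arrays correlated with r = 0.247 across genes. Spint1 kept its direction and stayed uncalled under every alternative run, at -0.48 to -0.74 log2. The single reversal of a called gene was Dsc3, at -0.53 without the first deficient array, where leaving out 1 array gave -0.53 to 3.08. Signals under 5.20 log2 limit 18 called folds to a lower bound.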

Other observations

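The called genes outside the rule for named genes, chosen after their values were seen, included a further interferon-related gene that rose. Ifitm1, a membrane protein of the interferon-induced family that restricts virus entry, read 10.43 and 10.32 log2 in control and 12.37 and 12.70 in deficient mucosa (2.16 ± 0.27, adjusted p = 0.0479), against the direction of the 17 falls in the interferon and antigen presentation lists. Lamb1, a laminin chain of basement membranes, rose by 2.10 ± 0.26 (adjusted p = 0.0479), and Fstl1, a secreted stromal glycoprotein, from 7.33 and 6.98 to 9.21 and 9.26 (2.08 ± 0.27, adjusted p = 0.0479). The serine protease Htra1 rose by 2.04 ± 0.28 log2 and the keratin gene Krt23 by 1.91 ± 0.26 (both with an adjusted p of 0.0495). All 5 were called without overlap between the groups.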
